A study of Mus musculus with 8 samples.

Results

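Among 56005 merged regions with a peak of phosphorylated RNA polymerase II in mouse erythroleukaemia cells, 476 carried a peak in at least 3 of 4 control libraries and in none of 4 libraries from cells with knockdown of Myrlin, which is 0.85% of all regions and 1.77% of the 26946 regions with a peak in at least 3 libraries. These 476 regions, called lost regions here, were chosen by their peak calls in the same 8 libraries, so their count and their peak heights describe the choice and support nothing further. The mirror rule, a peak in at least 3 knockdown libraries and in no control library, took 549 regions (0.98% of all, and 2.04% of those with a peak in at least 3 libraries). Which of the 2 counts is larger turned with the processing: 514 lost and 424 gained with the same number of peaks per list, 384 and 349 at an authors' −log10 q of at least 5, 734 and 230 after thinning to the shallowest library, 584 and 535 with windows around the summits in place of whole peaks, and 129 and 103 with all 4 libraries asked for. No direction is read from them.

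The cells were MEL, a mouse erythroid leukaemia line, in a Myrlin KD genotype and a dCAS control genotype, where the growth protocol speaks of control and CRISPR-edited lines. Myrlin is the transcript of an enhancer 81 kb upstream of Myb, and the series title links it to Myb and to recruitment of the MLL1 complex. CUT&Tag was run in each line with an antibody against the C-terminal domain of Rpb1 phosphorylated on serine 5 (Ser5P) and with one against serine 2 (Ser2P), with 2 biological replicates per antibody and line, which gives 8 libraries. Neither the separation of the replicate cultures nor the number of clones behind each line is given, so the spread between libraries may be technical, and knockdown and line cannot be told apart.

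The C-terminal domain of Rpb1 is a long repeat that is phosphorylated as transcription proceeds: Ser5P is placed at initiation and marks gene starts, and Ser2P builds up as the polymerase elongates through the gene body. CUT&Tag brings a transposase to the epitope by way of the antibody, so that tagged fragments pile up where the epitope lies. Phosphorylated polymerase is also found at active enhancers, which are transcribed in short stretches, so a peak away from a gene start can be a transcribed gene body, an enhancer or an unannotated start. MEL cells are blocked at an early erythroid stage. A start marked in all 8 libraries was found for 5 of 8 erythroid markers, among them Klf1, Tal1, Epor and Nfe2, for 0 of 6 lymphoid and 0 of 6 myeloid markers, and for 1 of 6 non-haematopoietic markers, Col1a1.

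The sequences shown first are those of promoters that the lost regions cover in whole or in part. Uros encodes uroporphyrinogen III synthase, an enzyme of haem synthesis, and is known to have a housekeeping promoter and a second promoter further downstream that serves erythroid cells. The lost region at Uros lay on the inner of its annotated starts, chr7:133702271-133702682 (GRCm38), while the outer start 6795 bp upstream had a peak in all 8 libraries. Both promoter windows, 250 bases before to 50 after the start on the minus strand from RefSeq (GRCm38.p6), are given with each CG dinucleotide in capitals. The outer window, chr7:133709246-133709545, held 28 CG and 60.3% G or C, and the inner window, chr7:133702451-133702750, held 5 CG and 48.7% G or C.
Uros inner start, lost: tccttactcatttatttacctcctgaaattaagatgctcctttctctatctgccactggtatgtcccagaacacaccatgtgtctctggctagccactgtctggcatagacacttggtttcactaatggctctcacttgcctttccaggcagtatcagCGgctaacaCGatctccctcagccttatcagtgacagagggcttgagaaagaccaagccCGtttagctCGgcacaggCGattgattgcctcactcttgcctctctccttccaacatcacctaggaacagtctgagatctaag
Uros outer start, kept: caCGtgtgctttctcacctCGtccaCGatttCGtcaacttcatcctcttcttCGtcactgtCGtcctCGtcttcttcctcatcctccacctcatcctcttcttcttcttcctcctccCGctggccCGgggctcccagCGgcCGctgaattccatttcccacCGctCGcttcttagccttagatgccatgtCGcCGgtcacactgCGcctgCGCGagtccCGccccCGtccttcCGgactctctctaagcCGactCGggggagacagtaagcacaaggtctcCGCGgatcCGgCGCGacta

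Cyp2r1 encodes the vitamin D 25-hydroxylase and Klhl6 an adaptor of a cullin ubiquitin ligase known from B cells. They are shown because their windows hold the letters AGATAA, one form of the core bound by GATA factors, which drive erythroid transcription. Another form, TGATAA, was not searched for and is not in capitals. It lies inside the lost region in the Klhl6 window and, on the other strand, in the inner Uros window. The AGATAA match is in capitals and starts 92 bases before the start in Cyp2r1 (chr7:114562923-114563222, minus strand) and 219 bases before it in Klhl6 (chr16:19983000-19983299, minus strand). The Cyp2r1 lost region covers all 300 bases of its window and so the match. The Klhl6 lost region, chr16:19982820-19983200, covers 201 bases of its window, and the AGATAA match lies outside the region. A match of letters is a description and not a bound site.
Cyp2r1 promoter: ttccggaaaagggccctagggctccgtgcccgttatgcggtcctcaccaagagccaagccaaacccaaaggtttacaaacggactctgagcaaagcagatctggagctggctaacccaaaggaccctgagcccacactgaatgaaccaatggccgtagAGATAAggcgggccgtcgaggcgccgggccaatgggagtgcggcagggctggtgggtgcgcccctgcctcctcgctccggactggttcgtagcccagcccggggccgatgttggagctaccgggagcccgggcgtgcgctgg
Klhl6 promoter: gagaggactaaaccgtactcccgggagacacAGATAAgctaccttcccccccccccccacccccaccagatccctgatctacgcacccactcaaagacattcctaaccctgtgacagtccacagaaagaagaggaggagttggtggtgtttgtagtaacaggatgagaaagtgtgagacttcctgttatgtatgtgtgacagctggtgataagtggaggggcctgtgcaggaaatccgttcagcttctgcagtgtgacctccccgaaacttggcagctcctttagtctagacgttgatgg

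One lost region, chr11:96850018-96850577 near the Copz2 start, spans the whole 73-base hairpin of miR-152 on the plus strand. No KD library had a peak there, and the summit pileup, the number of fragments over the highest base of the peak, was 9 and 8 in the Ser5P controls, 8 in Ser2P control 1 and without a peak in Ser2P control 2. Copz2 encodes a subunit of the COPI vesicle coat and hosts miR-152. The mature strands are given from RefSeq with the seed, bases 2 to 8, in capitals.
mmu-miR-152-5p: uAGGUUCUgugauacacuccgacu
mmu-miR-152-3p: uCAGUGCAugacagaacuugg

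Of the 476 lost regions, 129 had a peak in all 4 controls. Ser2P control 2 was the missing library in 169 others, Ser5P control 1 in 66, Ser5P control 2 in 64 and Ser2P control 1 in 48. Ser2P control 2 was the shallowest library, with 20793 peaks and a relative depth of 0.439, where relative depth is the most frequent background pileup of a library. The KD libraries had relative depths of 0.649 and 0.841 for Ser5P and 1.12 and 1.03 for Ser2P, against 0.566 and 0.639 for Ser5P and 0.780 and 0.439 for Ser2P in the controls. Each KD library was thus at least as deep as both controls of its antibody, and had wider peaks.

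The lost regions were low among the peaks of their own lists. Their median summit pileup was 12 in both Ser5P controls, 15 in Ser2P control 1 and 11 in Ser2P control 2, against medians of 20, 21, 21 and 17 over all peaks of these lists. The authors' fold enrichment at the summit had medians between 4.77 and 4.92 in the 4 controls. Just outside the rule lay 1357 regions with a peak in 2 controls and no KD library, 229 with a peak in 4 controls and 1 KD library, and 573 with a peak in 3 controls and 1 KD library. The median of the smallest fold was 4.17 for the members with 4 controls, 4.17 for those with 3, 3.93 for regions with 2 controls, 4.27 for 4 controls and 1 KD library, and 4.04 for 3 controls and 1 KD library. The smallest fold is taken over 4, 3 or 2 control peaks, so these medians are not like for like. The median of the largest control pileup was 18, 15, 13, 18 and 16 in the same order. Regions just outside the rule thus had values near those of the members.

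The count of 476 was set beside those of other ways to put 2 libraries of each antibody on each side. In the other 34 sides of 4 libraries, 84 to 615 regions were on one side by the same rule, with a median of 221.5, and 3 of the 34 held more than 476. With a peak asked for in all 4 libraries of a side, the control side had 129 regions, and the other 34 sides had 2 to 92 with a median of 22.5. Lost and gained regions together were 1025, against 359 to 740 in the 17 other splits, and 232 against 33 to 96 where all 4 libraries had to have the peak. These counts are a description of the 8 lists.

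**Figure D1:**
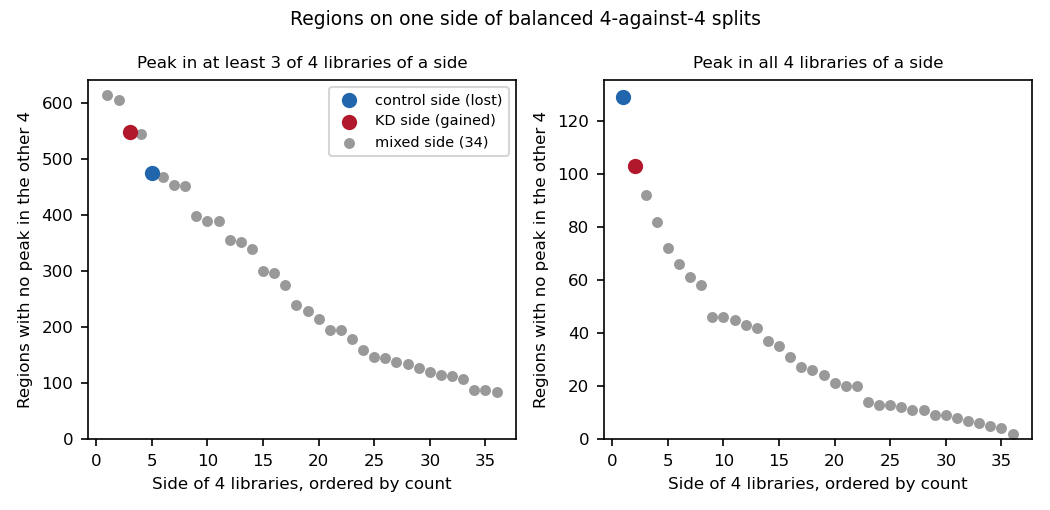
Regions with a peak on one side of 4 libraries and none on the other, for all 36 sides balanced over the antibodies (y, count; x, sides in order of count; left, at least 3 of 4 libraries; right, all 4 libraries). The control side (476 and 129) lies below the KD side (549) and 3 mixed sides on the left and above all other sides on the right, and grey points are sides that mix KD and control libraries.

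A reading that the choice did not use comes from the other antibody. Regions were chosen on one antibody alone, as control-only (both controls and no KD library) or KD-only (the reverse), and then looked up in the 4 libraries of the other antibody. Choosing on Ser5P gave 1537 control-only and 822 KD-only regions, and choosing on Ser2P gave 764 and 2442. In the Ser5P KD libraries 17.3% and 24.1% of the Ser2P control-only regions had a peak, against 46.7% and 47.6% in the Ser5P controls. In the Ser2P KD libraries 45.02% and 40.01% of the Ser5P control-only regions had a peak, against 61.0% and 37.9% in the Ser2P controls, so on this share alone the lines overlapped for Ser2P. The share of KD-only regions with a peak was 28.9% and 36.7% in the Ser5P KD libraries and 62.8% and 57.2% in the Ser2P KD libraries, against 27.8% and 31.5% in the Ser5P controls and 46.0% and 22.7% in the Ser2P controls.

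The difference of both shares within a library, which holds its depth in both terms, was −11.6 and −12.6 points in the Ser5P KD libraries and −17.8 and −17.2 points in the Ser2P KD libraries. It was 18.96 and 16.2 points in the Ser5P controls and 14.98 and 15.1 points in the Ser2P controls. The means were −14.8 ± 3.13 points in KD and 16.3 ± 1.85 points in control libraries (SD over 4 libraries each, 2 per antibody). The lines did not overlap. The labels do not say whether Ser5P and Ser2P libraries of a line came from the same cultures. The 4 libraries of a line may thus stand for only 2 replicates. The difference was −31.1 points with a two-sided exact permutation p of 0.0556. This is the smallest p that the 36 arrangements within antibodies allow, so this design cannot reach the usual threshold. The line labels were permuted over fixed library values, and the regions were not chosen anew in each arrangement, so the p leaves out that choice. It also takes each library as a unit, and with cultures shared between antibodies fewer arrangements would be free and the smallest p larger. The Ser5P and Ser2P values come from overlaps among the same lists and are not independent of each other.

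**Figure D2:**
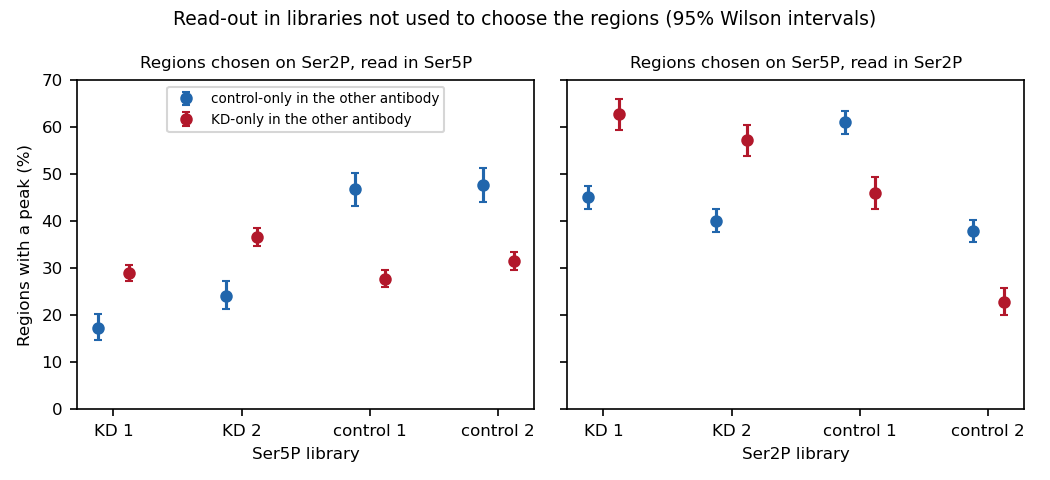
Share of regions with a peak (y, %) in each library of the antibody that did not choose them, for control-only regions (blue) and KD-only regions (red), with 95% Wilson intervals that cover counting error over regions only. In all 4 KD libraries the red point is higher and in all 4 controls the blue point is higher.

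The lost regions mostly lay away from gene starts. Within 1000 bp of an annotated start were 41 of 476 (8.61%, 95% Wilson interval 6.41 to 11.5%), inside a protein-coding gene 269 (56.5%), inside another gene 32 (6.72%) and between genes 134 (28.2%). Gained regions were near a start in 14.6%, regions with a peak in 3 or 4 libraries from both lines in 12.9%, and regions with a peak in all 8 libraries in 63.0%. With summit windows in place of whole peaks the shares were 17.1% of 584 lost, 18.1% of 535 gained, 18.98% of 6892 in 3 or 4 libraries from both lines and 62.5% of 10010 in all 8. Regions shared by few libraries, in whichever line, were thus mostly intragenic or intergenic. The host genes of the lost regions were largely active ones: 154 of 266 (57.9%) had a start marked in all 8 libraries, against 177 of 292 (60.6%) for gained regions and 37.1% of all 21536 protein-coding genes with a start. The median width of lost regions was 511.5 bp, against 596 bp for gained regions, 1000 bp for regions in all 8 libraries and 478 bp over all 56005 regions. Within 10 kb of a region with a peak in all 8 libraries lay 19.7% of lost regions, 33.9% of gained regions and 25.5% of the regions in 3 or 4 libraries from both lines. The share of regions that were lost ran from 0.566% on chromosome X to 1.20% on chromosome 15, leaving aside Y, where 1 of 46 regions was lost.

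**Figure D3:**
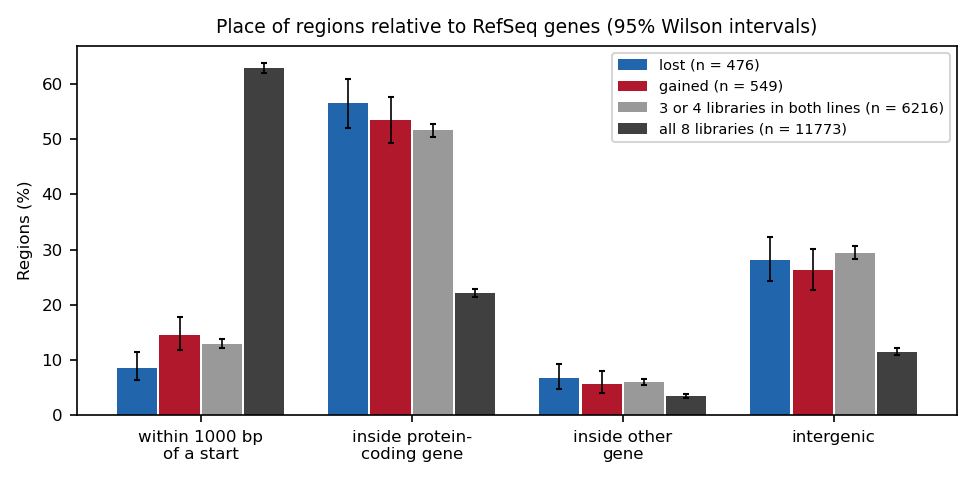
Share of regions (y, %) by place relative to RefSeq genes (x) for lost, gained and 2 comparison sets, with 95% Wilson intervals over regions. Lost regions lie within 1000 bp of a start in 8.61% and regions with a peak in all 8 libraries in 63.0%.

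The longest run of lost regions with no region shared by both lines between them lay over Rcbtb1, which encodes a protein with RCC1 and BTB domains, and the neighbouring Phf11 family of PHD-finger genes on chromosome 14. Of 6 lost regions there, 3 lay inside Rcbtb1, 1 mostly between Rcbtb1 and the Phf11 pseudogene, 1 in that pseudogene and 1 in Phf11b. The region chr14:59223166-59223775 in Rcbtb1 had no peak in any KD library and pileups of 64 and 86 in the Ser5P controls and 47 and 30 in the Ser2P controls. The region chr14:59231817-59232536 likewise had none in KD and 61, 94, 55 and 44 in the controls, in the same order. The region chr14:59220695-59221725 had none in KD, 74 and 85 in the Ser5P controls, 47 in Ser2P control 1 and no peak in Ser2P control 2. Past the end of Rcbtb1 and over the near end of the Phf11 pseudogene, chr14:59237903-59238864 had no KD peak and control pileups of 61, 72, 34 and 23. Inside the pseudogene chr14:59246076-59246807 had no KD peak and 21, 33 and 25 in the first 3 controls. The region in Phf11b, chr14:59322334-59323886, ranked 3 among all lost regions by fold. It had no KD peak and control pileups of 30, 36, 32 and 19.

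The Rcbtb1 start itself was no lost region, since all 8 libraries had a peak there (chr14:59200584-59201694). Its pileups were 9 and 15 in the Ser5P KD libraries and 14 and 15 in the Ser2P KD libraries, against 110 and 127 in the Ser5P controls and 61 and 38 in the Ser2P controls. Every KD library was below every control, although within each antibody the KD libraries had the higher relative depth. Divided by relative depth the values were 13.9, 17.8, 12.5 and 14.6 in KD and 194, 199, 78.2 and 86.6 in controls. Among 11751 regions with a solved pileup in all 8 libraries, every KD pileup was below every control pileup in 31 (0.264%) and above every control pileup in 1006 (8.56%), without scaling for depth. The Rcbtb1 start was the 1 region of the 31 whose highest KD pileup was under 0.5 of the lowest control pileup. Per relative depth the order of these counts turned. Both KD libraries were below both controls within each antibody in 4051 of the 11751 (34.5%) and above both in 183 (1.56%). The medians over the 11751 per relative depth were 50.9 and 46.4 in the Ser5P KD and 40.2 and 39.8 in the Ser2P KD libraries, against 58.3 and 56.4 in the Ser5P controls and 46.2 and 50.1 in the Ser2P controls. A KD value below both controls per depth is therefore common among these regions. Within each antibody both KD values were below 0.5 of both controls in 26 (0.221%) and above double both in 4 (0.034%), and the Rcbtb1 start had the lowest such ratio, 0.186. At the far end of the same stretch chr14:59370337-59371989 had pileups of 17, 16, 30 and 28 in KD and 28, 27, 33 and 19 in controls. Per relative depth these were 26.2, 19.02, 26.8 and 27.2 in KD and 49.4, 42.3, 42.3 and 43.3 in controls, so KD was below both controls in each antibody.

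**Figure D4:**
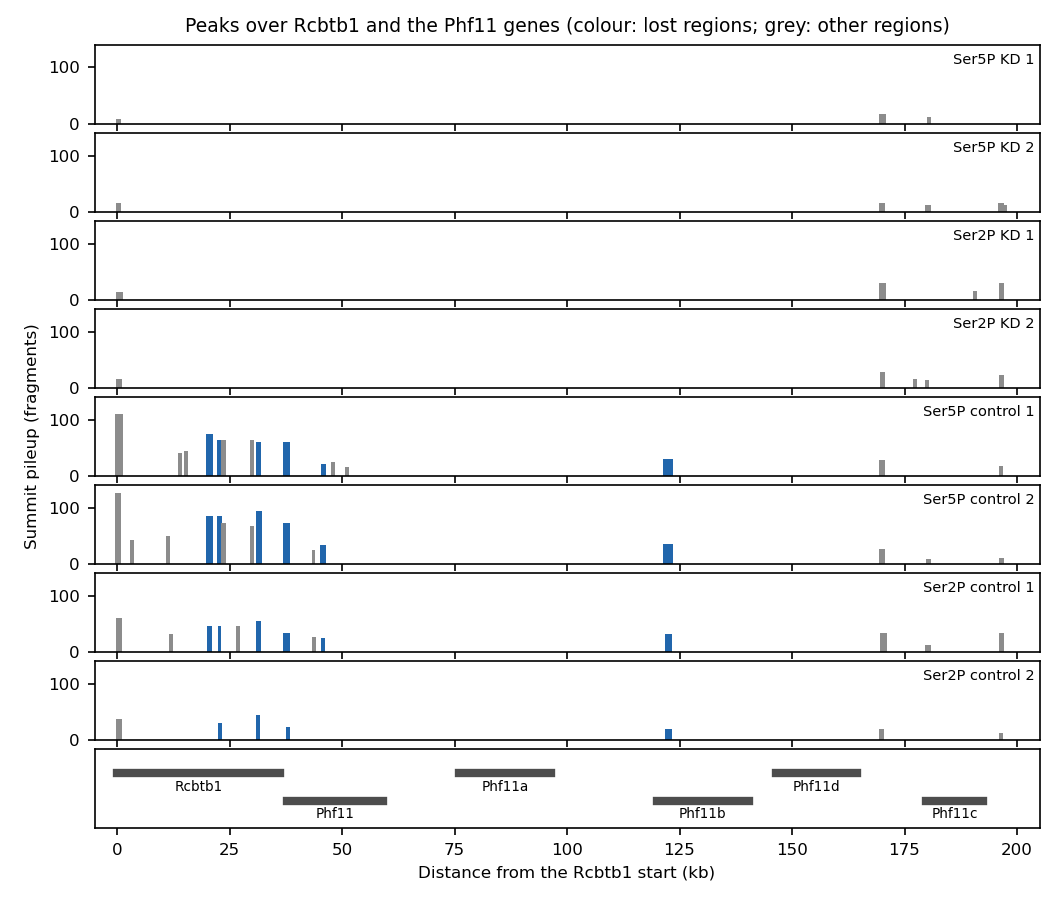
Summit pileup (y, fragments) of each peak by distance from the Rcbtb1 start (x, kb) in the 4 KD libraries (upper rows) and the 4 controls (lower rows), with genes in the bottom row. Blue bars are lost regions and grey bars other regions, drawn wider than the peaks. At the Rcbtb1 start KD pileups are 9 to 15 and control pileups 38 to 127.

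Grouped within 50 kb, 5 lost regions fell within 84.3 kb around the long noncoding genes Gm41638 and Gm35229 on chromosome 17, and 5 of the 6 above also formed such a group. The one inside these genes, chr17:83954339-83955658, had no KD peak and pileups of 76 and 87 in the Ser5P controls and 69 in Ser2P control 1, with no peak in Ser2P control 2. A region beside them with a peak in all 8 libraries, chr17:83961374-83963232, had pileups of 11 and 11 in the Ser5P KD and 14 and 15 in the Ser2P KD libraries, against 100, 117, 55 and 29 in the controls. It came second among the 31 regions in which every KD pileup was below every control pileup, and second among the 26 by the ratio per depth, at 0.221. Further upstream chr17:83854345-83854941 had 23, 34, 40 and 30 in KD and 19, 37, 25 and 16 in controls. These pileups overlapped between the lines in Ser5P, and in Ser2P both KD libraries were above both controls. Per relative depth the lines overlapped in each antibody.

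Lrrfip2, whose product is known to act in Toll-like receptor and Wnt signalling, held 3 lost regions over 34.6 kb on chromosome 9. They had no KD peak, and Ser2P control 2 had none either. Their pileups in Ser5P control 1, Ser5P control 2 and Ser2P control 1 were 58, 58 and 36 at chr9:111122366-111122801, 53, 76 and 43 at chr9:111150441-111151343, and 34, 47 and 34 at chr9:111155931-111156920. The start of Lrrfip2, chr9:111117837-111119372, had no peak in Ser5P KD 1 and pileups of 19, 18 and 20 in the other 3 KD libraries, against 59, 65, 38 and 19 in the controls. Over the first stretch of the gene there were 0, 1, 3 and 3 peaks in the KD libraries against 10, 11, 7 and 3 in the controls.

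Plekha6, which encodes a protein with a pleckstrin homology domain, held 2 lost regions on chromosome 1. The region chr1:133167420-133169103 had no KD peak and control pileups of 119, 139, 60 and 27, and chr1:133180777-133181900 had no KD peak and 85, 85, 67 and 38. A peak nearer the Plekha6 start, chr1:133162755-133163261, was in Ser5P KD 1 (pileup 19) and Ser2P KD 2 (22) and in no control. Beside it chr1:133163756-133164239 had a peak in both Ser2P KD libraries (23 and 26) and in no control. The start of Ppp1r15b upstream, which encodes a phosphatase subunit of the stress response, had pileups of 90, 88, 81 and 69 in KD and 116, 113, 80 and 46 in controls. Per relative depth these were 139, 105, 72.3 and 67.0 in KD and 204.8, 177, 103 and 105 in controls, below both controls in each antibody. A further region inside Plekha6 with a peak in all 8 libraries, chr1:133244604-133245249, had 20, 22, 28 and 23 in KD and 43, 43, 60 and 36 in controls, and is one of the 26.

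2 lost regions stood alone with a high control signal. One lay 4097 bp from the start of Dgkd, a diacylglycerol kinase gene, at chr1:87847735-87849190, with no KD peak and control pileups of 69, 70, 35 and 20. The Dgkd start region kept a peak in all 4 KD libraries, with pileups of 28, 40, 39 and 43, against 66, 71 and 45 in the first 3 controls and no peak in Ser2P control 2. Per relative depth these were 43.2, 47.6, 34.8 and 41.8 in KD and 117, 111 and 57.7 in the first 3 controls. The other, chr15:67470641-67472574, was intergenic, 293695 bp from the nearest named start, St3gal1, and had no KD peak and control pileups of 68, 86, 34 and 23. A region beside it, chr15:67460135-67460928, had a peak in all 8 libraries with pileups of 11, 9, 15 and 13 in KD and 35, 48, 27 and 21 in controls. Of the 31 regions with every KD pileup below every control pileup, 6 (19.4%) had a lost region within 50 kb, against 630 (5.36%) of the 11751. Both the 31 and the lost regions were chosen by low KD signal in the same libraries, so these shares are a description and support nothing further.

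A peak call depends on the background around it, since MACS2 scores a summit against its surroundings. Within 20 kb of the lost regions, 119 of 476 had no peak of any KD library and 223 had peaks of all 4 KD libraries. At 52 lost regions the control background was at least 10 times the relative depth. At 4 of these 52 no KD library had a peak within 20 kb, and the others were compared within each antibody, per relative depth. The highest KD background was below 0.5 of the lowest control background in both antibodies at 9, and in Ser2P at 2 more in Lrrfip2, where Ser5P KD had no peak nearby. These 15 are the regions over Rcbtb1, Phf11, Gm41638, Lrrfip2 and Plekha6, the 2 single ones above and 1 in Mppe1. At 20 the KD background was below the lowest control in both antibodies and at least 0.5 of it in 1 or both. At 11 it was at or above the lowest control in 1 antibody and at 6 in both.

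**Figure D5:**
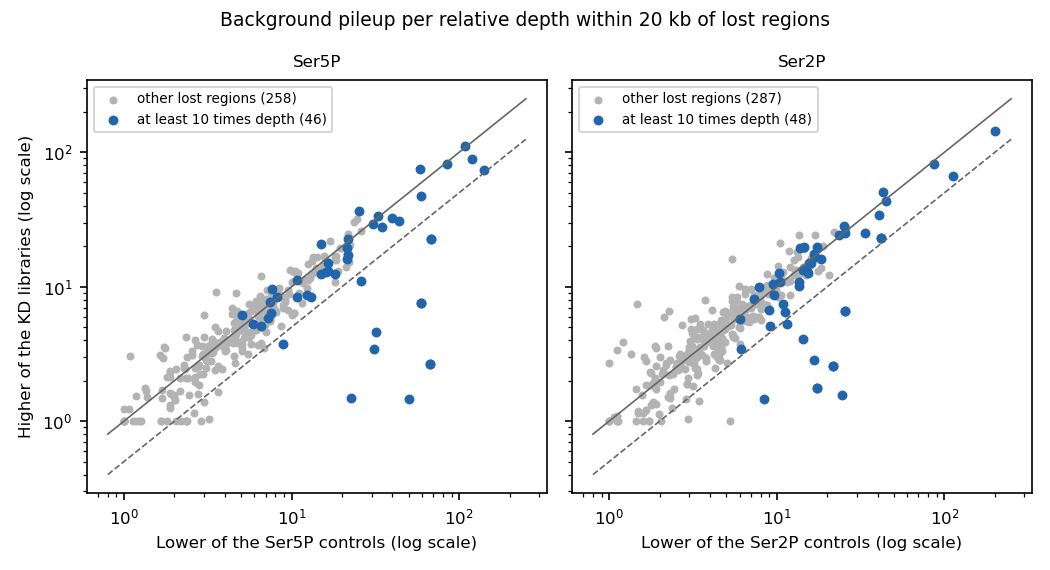
Background pileup per relative depth within 20 kb of lost regions, the higher of the KD libraries (y, log scale) against the lower of the controls (x, log scale), for Ser5P (left, 304 lost regions with values in both lines) and Ser2P (right, 335). Blue points are the 46 and 48 with a background of at least 10 times depth at the lost region, and points coincide where lost regions share their surroundings. The solid line marks equal values and the dashed line a ratio of 0.5, below which 12 of the 46 and 11 of the 48 lie.

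Lost regions with a raised background in both lines included 2 in Cbfa2t3, the gene of the corepressor ETO2 of the TAL1 complex, and 1 in Slc48a1, a haem transporter gene. Near the Slc48a1 region the highest KD background per relative depth was 82.3 in each antibody, against a lowest control background of 85.1 in Ser5P and 86.9 in Ser2P. Near one Cbfa2t3 region it was 88.9 in KD and 119 in controls for Ser5P, and 145 in KD and 199.6 in controls for Ser2P. Near the other it was 73.6 in KD and 140.04 in controls for Ser5P, and 66.7 in KD and 112 in controls for Ser2P. A region in Cbfa2t3 with a peak in all 8 libraries, chr8:122685313-122686377, is one of the 26. Its values per relative depth were 81.7, 77.3, 91.9 and 89.4 in KD and 177, 199, 217 and 189 in controls. Grk6, a kinase of G protein-coupled receptors, and Prr7 beside it held 1 each. The region in Grk6, chr13:55458531-55459393, had no KD peak and control pileups of 56, 81, 49 and 29. The start of Grk6 had pileups of 69, 80, 85 and 80 in KD and 91, 107, 65 and 48 in controls. Per relative depth these were 106, 95.1, 75.8 and 77.7 in KD and 161, 168, 83.3 and 109 in controls, below both controls in each antibody.

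At promoters, 27 lost regions lay within 1000 bp of the start of a named gene. At the inner Uros start no KD library had a peak, and the pileups were 16 and 12 in the Ser5P controls and 25 and 16 in the Ser2P controls. At the outer start they were 82, 76, 74 and 79 in KD and 63, 77, 69 and 34 in controls. Per relative depth these were 126, 90.4, 66.02 and 76.8 in KD and 111, 121, 88.5 and 77.5 in controls, so the lines overlapped in Ser5P and KD was below in Ser2P. A peak of Ser2P KD 1 alone (pileup 16), chr7:133701305-133701613, lay 658 bp from the lost region, and with peaks up to 1000 bp apart merged the inner start was no longer lost. Tpst2, a tyrosylprotein sulfotransferase gene, also had a lost region at an inner start (no KD peak, no peak in Ser5P control 1, and 31, 26 and 17 in the other controls). Less than 1000 bp from it, chr5:112295052-112295883 had pileups of 16, 23, 28 and 27 in KD. The first 3 controls had 28, 20 and 17 there. With peaks up to 1000 bp apart merged, the inner start of Tpst2 was thus not lost either. An outer start of Tpst2 was marked in all 8 libraries, with pileups of 77, 98, 114 and 93 in KD and 102, 91, 96 and 58 in controls. Per relative depth KD was below both controls there in each antibody.

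The highest ranks among promoters of named genes by the smallest fold were Cyp2r1 and Rassf4. Cyp2r1 had no KD peak and control pileups of 21, 20, 36 and 19. Rassf4, a Ras-association domain gene, had no KD peak and 15, 13, 13 and 10. Igsf9, an immunoglobulin superfamily gene, was the only other one of the top 12 with all 4 controls besides Srsf6, at 11, 9, 11 and 7. Srsf6, a splicing factor gene, had 34, 39, 27 and 17, but its lost region lay 441 bp from a region that all 8 libraries shared. The others of the 12 had a peak in 3 controls. Tespa1, known in thymocyte signalling, had 24, 14 and 10 in the first 3 controls, and Klhl6 had 10, 12 and 7 in the last 3. Gnb4 (a G protein subunit), Spata20, Lancl1, Retreg1 (a receptor for autophagy of the endoplasmic reticulum), Trim30a and Tcn2 (the vitamin B12 carrier transcobalamin) had control pileups between 6 and 19. The lowest pileup in each of the 4 control lists was 4 or 5.

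A RefSeq promoter window of 24 genes overlapped a lost region, by 14 bases (Gm46943) to all 300. The start or a motif of such a window can thus lie outside the lost region. The median of the 24 windows was 6 CG dinucleotides and 55.2% G or C. It was 19 and 60.2% for 46 windows matched to gained regions. For 8368 windows matched to regions in all 8 libraries it was 23 and 62.0%. All 32851 windows had a median of 7 CG and 52.7% G or C. AGATAA on either strand was in 6 of 24 lost windows (25%), 13.0% of gained, 5.34% of all-8 and 11.2% of all windows. The lost windows with it were those of Cyp2r1, Klhl6 and the predicted noncoding genes Gm46220, Gm36408, Gm30728 and Gm32401. Other forms that GATA factors bind, such as TGATAA, were not counted. The lost windows mix protein-coding and noncoding genes, and their CG ran from 0 in Trim30a to 30 in Igsf9. The GC box GGGCGG was in 33.3% of lost, 65.2% of gained, 69.8% of all-8 and 35.7% of all windows. The ETS core CCGGAAG was in 0 of 24 lost windows, against 10.9% of gained, 22.7% of all-8 and 8.86% of all windows. With 24 windows each count carries a wide error.

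By the authors' fold the 12 highest lost regions were not at promoters of protein-coding genes. The first, chr7:142611090-142611404 at the predicted gene Gm33148, had no KD peak, control pileups of 16 and 21 in Ser5P and 16 in Ser2P control 2, and no peak in Ser2P control 1. The region in Phf11b had rank 3. Rank 9 lay in Rpa1, the gene of the large subunit of replication protein A, with no KD peak and control pileups of 23, 32, 38 and 25. Rank 8 lay in Wwox, an oxidoreductase gene at a fragile site, and rank 12 in Zmym4, each with a peak in 3 controls. Ranks 6, 10 and 11 were intergenic and had a peak in all 4 controls, with pileups of 11, 13, 16 and 18, of 32, 26, 24 and 22, and of 12, 15, 24 and 23.

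Lists of genes that bear on erythroid cells and on Myb were counted next. Of all 21887 protein-coding genes 295 (1.35%) held a lost region inside or within 1000 bp upstream. Among erythroid and haematopoietic regulators it was 4 of 29: Etv6, Cbfa2t3, Foxo3 and Sox6. Among haem, globin and red-cell genes it was 4 of 35, among them Uros, Gypc and Cat. Regulators are long genes, with a median of 33.4 kb against 17.2 kb over all genes and 15.7 kb for the haem and red-cell list. Counted per region with a peak in at least 3 libraries, 5 of 135 (3.70%) were lost in the regulators and 4 of 71 (5.63%) in the red-cell list, against 303 of 19773 (1.53%) over all protein-coding genes. In the same lists 2 and 3 regions were gained, so losses and gains differed by 3 and by 1 region.

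Foxo3 encodes a forkhead factor of red-cell maturation, and its lost region, chr10:42247252-42247590, had no KD peak and control pileups of 19, 20, 20 and 13. A region 2102 bp away with a peak in all 8 libraries had 32, 44, 43 and 33 in KD and 48, 57, 41 and 23 in controls. Per relative depth these were 49.3, 52.3, 38.4 and 32.1 in KD and 84.7, 89.2, 52.6 and 52.4 in controls, below both controls in each antibody. At the Foxo3 start, chr10:42276318-42278405, they were 100, 89.2, 69.6 and 66.1 in KD and 106, 121, 65.4 and 66.1 in controls. KD was below both controls there in Ser5P, and the lines overlapped in Ser2P. Etv6, an ETS repressor gene, had 10, 18 and 11 in Ser5P control 1 and both Ser2P controls. Sox6, a factor of globin silencing, had 9, 13 and 7 in the last 3 controls. Neither had a KD peak there.

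Cat encodes catalase, which breaks down hydrogen peroxide, and its lost region, chr2:103480151-103480663, had no KD peak and pileups of 31 and 38 in the Ser5P controls and 13 in Ser2P control 2. The Cat start had 52, 64, 55 and 62 in KD and 51, 52, 43 and 25 in controls. Per relative depth KD was below both controls there in Ser5P and overlapped them in Ser2P. Gypc, the gene of glycophorin C, had no KD peak at chr18:32538376-32538700 and 14 in Ser5P control 1 and 37 and 29 in the Ser2P controls.

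In the MLL and Menin complex list 1 of 18 genes held a lost region, Kmt2d, an H3K4 methyltransferase gene (no KD peak, 29, 33 and 41 in the first 3 controls). In the list of polymerase kinases and elongation factors it was 1 of 32, Ell (no KD peak, 25, 25 and 24 in the first 3 controls). In Kit, erythropoietin and Ras signalling it was 2 of 32. These were Pik3r1, the gene of a regulatory subunit of phosphoinositide 3-kinase (no KD peak, 8, 15, 16 and 15 in the controls), and Sos1, a Ras exchange factor gene (no KD peak, 18, 16 and 17 in the first 3). Of regions with a peak in at least 3 libraries, these lists lost 1 of 39 (2.56%), 1 of 77 (1.30%) and 2 of 72 (2.78%). Over all protein-coding genes it was 1.53%. No lost region lay in the 23 progenitor genes linked to Myb, the 42 cell cycle and replication genes or the 27 immediate-early and stress genes. These held 51, 73 and 25 such regions. The 4 marker lists of 20 genes each, myeloid, lymphoid, megakaryocyte and mast cell, and non-haematopoietic, held none either. With 1.35% of all protein-coding genes holding a lost region, a count of 0 in lists this short is near that share. No depletion is read from it.

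Myb, the gene that the Myrlin enhancer serves, had no lost region within 200 kb. The nearest lay 11280 kb away on chromosome 10. Just outside the rule within 200 kb, chr10:21083528-21084085 and chr10:21251839-21252537 each had a peak in 4 controls and 1 KD library. There were 3 controls and 1 KD library at chr10:21228513-21228952. The other way, chr10:21116818-21117255 had a peak in 1 control and 3 KD libraries. The region 81 kb upstream, chr10:21241789-21242346, had a peak in Ser5P KD 1 and Ser2P KD 2 and in 3 controls (Ser5P control 1, Ser5P control 2 and Ser2P control 1), so it did not meet the rule.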

How the data were processed

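The deposited files are MACS2 peak lists, 1 for each of 8 libraries, on GRCm38/mm10. The submitters' processing notes name MACS2 2.2.7.1, Bowtie2 2.3.5, cutadapt 2.7, Picard 2.21.4, SAMtools 1.9 and deepTools 3.3.1. Settings of these tools were not given in the labels used here. For each peak the authors deposited a display score, a fold (the ratio at the summit over local background), a −log10 p-value, a −log10 q-value and the summit offset as another number in bp.

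Peaks on chromosomes 1 to 19, X and Y were merged where they overlapped by at least 1 bp. The whole-number summit pileup and the background were solved from fold and −log10 p (tolerance 0.001), and the method was tested on simulated data. Read totals were not used here, and relative depth was read from the background. The 95% Wilson intervals hold counting error alone. Places and promoter windows came from RefSeq GRCm38.p6, with missing strands taken by symbol from GENCODE vM1 (4044 genes), and 351 of 21887 genes had none. The genome supplied beside them is another build and was not used. Python 3.11.15, numpy 2.4.6, pandas 2.3.3, scipy 1.17.1 and matplotlib 3.10.9 were used.

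The members and gene lists were chosen with earlier results of these data known. Regions were named by rule: the 12 of highest rank by the smallest control fold, the 12 highest near the start of a named gene, up to 3 per gene list, any within 200 kb of Myb, and the longest run with no shared region between, which made 39. Some of the items this rule takes are not reported here. Chosen after their values were seen were the loci of chromosome 17, Lrrfip2, Plekha6, Dgkd, Grk6 and chromosome 15, the Tpst2, Cbfa2t3, Slc48a1 and miR-152 regions, the grouping within 50 kb, the 20 kb background, the motifs and the pileups of regions in all 8 libraries, raw and per relative depth within antibodies. The held-out test permuted the line labels of libraries within antibodies over fixed values, with no new choice of regions. The alternatives tried were the same number of peaks per list, a stricter −log10 q (at least 5), thinning to the shallowest library, other overlaps, distances and windows, and leaving out each library. Same-numbered KD and control libraries of an antibody did not deviate together (r = 0.0292 for Ser5P and 0.0201 for Ser2P across 11751 regions). The numbers were therefore not used as pairs of KD and control. Whether same-numbered Ser5P and Ser2P libraries of a line shared a culture was not tested.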

Additional observations from a re-analysis of the deposited data

How the results depend on the processing

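The number of lost regions was 384 to 584 with the same number of peaks per list, a −log10 q of at least 5, a 50 bp overlap, merging up to 1000 bp or summit windows, but the members changed. Of the 476, 140 were still called at a −log10 q of at least 5, 279 with equal numbers of peaks, 370 after thinning and 424 with summit windows. Thinning to the shallowest library gave 734 lost and 230 gained regions, and the cause was not tested. A peak in all 4 controls was held by 129, and the mirror gave 103. A −log10 q of at least 5 left 349 gained. Leaving out 1 library, which loosens the rule, gave 585 to 1399 lost and 670 to 2087 gained. The lost count passed 1.5 times the 476 without Ser2P KD 1 (779) and without any 1 control (956 to 1399), and the gained count without any 1 KD library (1108 to 2087) or Ser2P control 1 (1062). With Ser2P control 2 left aside and a peak asked for in the other 3 controls, an alternative chosen after seeing the data, 299 were lost. The share near a start was 14.3% within 2500 bp, 17.1% with summit windows and 7.15 to 10.6% without 1 library, with the cause not tested. Of 39 named regions 8 were kept under all 7 alternatives and 19 when the demand for all 4 controls is left aside. The held-out difference kept its sign throughout, from −22.6 to −41.2 points, and from −15.2 to −22.6 points without 1 library, where an arm of 1 library chooses more loosely. With the replicate number as a block it was −31.1 points with an exact permutation p of 0.125, the smallest that 16 arrangements allow. The numbers did not pair KD with control libraries. No peak in KD is a call at these depths and not an absence of polymerase.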
